A study of Mus musculus with 8 samples.

Results

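The Notch pathway was examined in 10 genes, namely the receptors Notch1, Notch2, Notch3 and Notch4, the ligands Jag1, Jag2 and Dll1, the DNA-binding effector Rbpj, and the targets Hes1 and Hey1. They were taken by gene symbol from a table of 24594 genes listed by Entrez Gene ID, and all 10 were found there. The study compared 2 fractions of luminal epithelial cells, the cells that line the ducts and alveoli of the mammary gland, freshly sorted from untreated virgin wild type mice of the strain C57BL/6J per the labels (the study's methods give C57BL/6J or C57BL/6JRj for its wild type mice), aged 12 to 20 weeks. One fraction held luminal progenitors (LP) and the other differentiated luminal cells, called mature here, and the labels name the surface proteins EpCAM, CD49f, cKit and CD14 for the sort, of which the study's text names c-Kit as the one that divided these fractions. The study's staining for the sort also held antibodies to CD45, CD31 and TER-119, lineage proteins of blood and endothelial cells. RNA was sequenced from 4 LP and 4 mature libraries, each made from 500 pg of RNA by amplifying its cDNA. Every LP library shared its number with a mature library, but the labels did not say whether libraries came from separate animals. The study's methods speak of biological replicates for all RNA sequencing, but of fewer per condition than were deposited, without saying which were used. All libraries were analysed, and the p-values measure the spread between them.

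Notch receptors sit in the cell membrane and are activated by ligands of the Jagged and Delta families on a neighbouring cell. Binding exposes the receptor to cleavage, first by a metalloprotease at the surface and then by the γ-secretase complex in the membrane, and the freed intracellular part joins RBPJ and Mastermind coactivators on DNA to turn on target genes such as Hes1 and Hey1. Notch signalling is known for its part in the choice and maintenance of luminal fates in the mammary gland, and because it is driven by receptor cleavage, the mRNA level of a receptor or ligand is not a measure of signalling.

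No promoter window was given for Hes1 and Hey1. The promoters of 3 other genes, Notch1, Jag1 and Maml2, are shown here. Notch1 is a receptor higher on average in LP libraries, with overlap between the fractions. Jag1 is the ligand higher in mature libraries, and Maml2 the Mastermind coactivator higher in LP libraries. Each promoter shown is the 250 bases before an annotated start, 5′ to 3′ on the strand of the gene. It comes from RefSeq on GRCm38.p6, which is the mm10 build used by the authors. Both strands were searched for 3 motifs, the RBPJ core TGGGAA and 2 sites known to be bound by HES and HEY proteins, CACGTG and CACGCG, whose matches may overlap one another. Matching letters are in capitals, so that TTCCCA marks the RBPJ core and CGCGTG the site CACGCG on the other strand.

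Notch1, chr2:26503823-26504072, minus strand: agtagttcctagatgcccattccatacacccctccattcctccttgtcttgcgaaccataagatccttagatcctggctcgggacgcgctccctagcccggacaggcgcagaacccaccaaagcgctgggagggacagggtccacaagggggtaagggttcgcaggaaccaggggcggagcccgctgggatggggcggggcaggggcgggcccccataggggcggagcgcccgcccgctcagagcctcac

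Jag1, chr2:137116521-137116770, minus strand: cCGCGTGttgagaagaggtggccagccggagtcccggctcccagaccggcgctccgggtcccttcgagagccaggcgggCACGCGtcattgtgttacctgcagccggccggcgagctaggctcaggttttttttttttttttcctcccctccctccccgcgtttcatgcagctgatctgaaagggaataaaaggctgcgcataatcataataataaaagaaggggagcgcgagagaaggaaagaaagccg

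Maml2, chr9:13297708-13297957, plus strand, upstream start: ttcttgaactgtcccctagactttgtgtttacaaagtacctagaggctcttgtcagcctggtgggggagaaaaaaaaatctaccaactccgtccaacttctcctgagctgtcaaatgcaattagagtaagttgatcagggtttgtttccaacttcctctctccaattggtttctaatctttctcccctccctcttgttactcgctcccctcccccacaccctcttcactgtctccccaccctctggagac

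Maml2, chr9:13662210-13662459, plus strand, downstream start: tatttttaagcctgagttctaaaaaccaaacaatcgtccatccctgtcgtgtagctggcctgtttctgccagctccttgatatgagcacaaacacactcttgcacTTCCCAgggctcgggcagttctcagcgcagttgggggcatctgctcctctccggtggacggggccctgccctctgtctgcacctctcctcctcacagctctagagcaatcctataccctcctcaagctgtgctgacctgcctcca

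None of the 3 motifs was found in the Notch1 window or at the upstream start of Maml2. CACGCG occurred in the Jag1 window at 2 places, 249 and 171 bases before the start, and TGGGAA at the downstream start of Maml2, 145 bases before it. Of the 32851 mouse promoters of this length, 21.6% held TGGGAA, 6.02% CACGTG and 7.62% CACGCG. A window was given for 8 of the 10 genes, all but Hes1 and Hey1, counting every annotated start of a gene, and among these TGGGAA was found for Rbpj alone, CACGTG for 0, and CACGCG for Dll1, Jag1 and Notch2. The shares over all promoters count single windows, whereas a gene with several starts counts here for any of them. These matches describe the letters in the windows and no binding was measured.

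Library totals lay between 5510863 and 7089597 counts in LP and between 4410049 and 7791593 in mature libraries. Levels are given as CPM, counts divided by the library size and brought to a common scale, with the library size adjusted by the TMM method of edgeR, and fold changes as log2 of LP over mature, so that a positive value is higher in LP. Of the 24594 genes, 12816 passed the filter on low counts and were compared with the quasi-likelihood test of edgeR and Benjamini-Hochberg adjustment over all of them, and 24.7% were called at an adjusted p-value under 0.05, 10.9% higher in LP and 13.8% higher in mature libraries. The sorted fractions differed in their marker genes. Kit and Cd14 encode proteins named for the sort, so their levels are no independent check of it. The summed level of Kit, Cd14, Elf5 and Aldh1a3, the progenitor list, was 13570 to 20040 CPM in LP and 244 to 966 CPM in mature libraries, with mature 3 the highest of the latter. The 6 mature markers Esr1, Pgr, Prlr, Areg, Foxa1 and Cited1 summed to 307 to 997 CPM in LP, with LP 1 the highest, and to 4370 to 6146 CPM in mature libraries. Cd14 alone was 12140 to 18320 CPM in LP, and Prlr alone was 3875 to 5442 CPM in mature libraries. Aldh1a3 was the only marker of these lists not called (adjusted p = 0.0512 from edgeR), and Esr1 and Areg overlapped between the fractions. Since whole fractions were sequenced, fewer cells of a type and less RNA per cell cannot be told apart.

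Of the 10 Notch genes, 7 passed the filter and 4 of these were called, against 24.7% of all genes tested. Notch1 and Hey1 were higher in LP, and Jag1 and Hes1 were higher in mature libraries. The other genes tested, Notch2, Notch3 and Rbpj, were not called, and Notch4, Jag2 and Dll1 were too low to be tested. The libraries of the 2 fractions did not overlap for Jag1, Hes1 and Hey1, against 29.5% of all genes tested (14.0% with LP above and 15.5% with mature above). The median log2 fold change of the 7 genes was -0.21, beside -2.85e-05 for all genes tested.

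**Figure D1:**
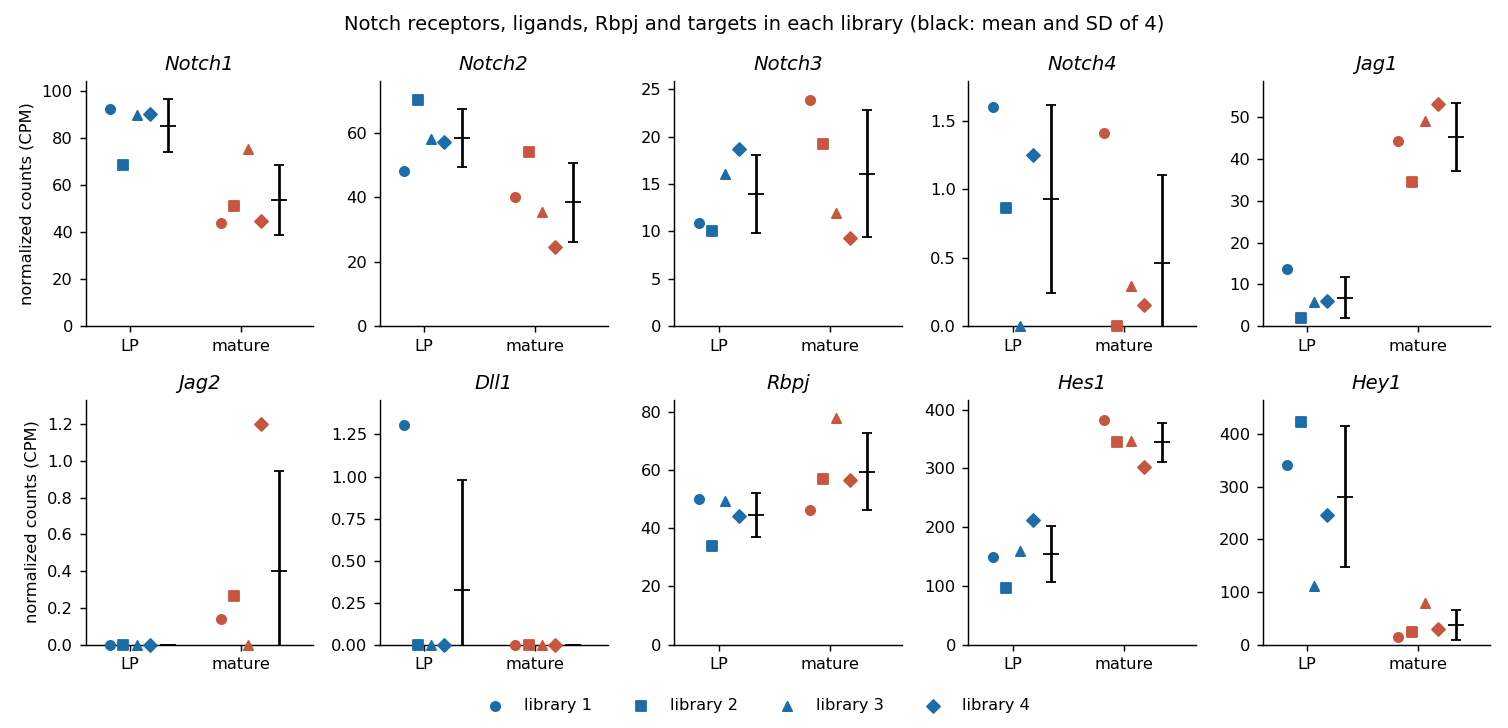
Normalized counts (CPM, vertical axes from 0) of the 10 Notch genes in each LP library (blue) and mature library (red), with a marker shape for each library number and black bars for the mean and SD of 4 libraries, cut at 0 where the SD reaches below it. Jag1 and Hes1 lie higher in all 4 mature libraries, Hey1 lies higher in all 4 LP libraries, and the 2 fractions overlap for the other genes.

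Among the receptors, Notch1 was the one called. Notch1 (Entrez Gene 18128, chromosome 2 of mm10 from 26457902 to 26503822) encodes a receptor widely used in epithelia. Its level was 92.2, 68.4, 89.6 and 90.2 CPM in LP libraries 1 to 4 and 43.7, 51.0, 75.4 and 44.6 CPM in mature libraries 1 to 4. LP libraries 1, 3 and 4 lay close together above all mature libraries, whereas LP 2 lay below mature 3, so the fractions overlapped. The log2 fold change was 0.66 (standard error, SE, of 0.208, edgeR adjusted p = 0.0393), or 1.58-fold, and the exact permutation test over the 8 libraries gave p = 0.0571. Notch1 was higher in LP for all 4 library numbers. The call depended on single libraries. When LP 1, LP 3, LP 4, mature 1, mature 2 or mature 4 was left out, the adjusted p-value of edgeR rose to between 0.0822 and 0.0977, and it stayed under 0.05 without LP 2 (0.0418) and without mature 3 (0.00525). An antisense transcript that is also in the count table, 0610009E02Rik, covers 7.5% of the exon length of Notch1, and without a stated strand for the counting its reads could not be told apart from those of Notch1. 0610009E02Rik was itself called higher in LP (log2 fold change 1.15, edgeR adjusted p = 0.00324), and its part in the Notch1 value was not tested.

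Notch2 (Entrez Gene 18129, chromosome 3 from 98013538 to 98150367), the receptor closest to Notch1 in level, had 48.1, 70.2, 58.1 and 57.2 CPM in LP and 39.9, 54.1, 35.4 and 24.4 CPM in mature libraries. Among mature libraries, mature 2 alone reached into the range of the LP libraries. Like Notch1, Notch2 was higher in LP for all 4 library numbers, and the exact permutation test gave the same p = 0.0571. The log2 fold change was 0.61 (SE 0.244), close to that of Notch1, but the gene was not called (adjusted p = 0.0952 from edgeR). It was called without mature 2, with a log2 fold change of 0.83 (adjusted p = 0.0317 from edgeR), so the 2 receptors stood on different sides of the threshold with values that were not shown to differ.

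Notch3 (Entrez Gene 18131, chromosome 17 from 32120820 to 32166896), a receptor known from vascular mural cells and also found in luminal cells, had 10.9, 10.1, 16.1 and 18.7 CPM in LP and 23.9, 19.2, 11.98 and 9.34 CPM in mature libraries. The values of the 2 fractions covered much the same range, and libraries 1 and 2 were higher in mature cells whereas libraries 3 and 4 were higher in LP. The log2 fold change was -0.21 (SE 0.373, edgeR adjusted p = 0.728) and its sign turned when mature 1 was left out, to 0.08. The pericyte markers Rgs5, Pdgfrb, Cspg4 and Des summed to 0 to 13.2 CPM in LP and 0 to 4.64 CPM in mature libraries, with Pdgfrb at most 0.151 CPM in any library. Rgs5 alone made up 12.5 CPM in LP 4 and 2.81 CPM in mature 1, in each fraction the library with the most Notch3. It was 0.581 CPM in LP 1 and 0 in the others, among them mature 2 with 19.2 CPM of Notch3. None of these markers passed the filter, and their part in the Notch3 values was not tested.

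Notch4 (Entrez Gene 18132, chromosome 17 from 34564286 to 34588543), the receptor known from endothelium, held 39 counts in all 8 libraries together. Its level was 1.60, 0.863, 0 and 1.25 CPM in LP and 1.41, 0, 0.289 and 0.151 CPM in mature libraries. A count of 0 allows up to 3 counts, which is 0.416 to 0.498 CPM in LP and 0.422 to 0.788 CPM in mature libraries, and this covers counting error only, since PCR copies of a molecule were not separated. No difference was detectable at this depth. CD31, one of the stained lineage proteins, is the product of Pecam1. Among endothelial markers, Pecam1 was 2.91 to 8.19 CPM in LP and 0.984 to 7.94 CPM in mature libraries, with Kdr at 0 in all libraries and a sum over Pecam1, Cdh5, Kdr, Tie1 and Tek of 3.88 to 10.1 CPM in LP and 2.25 to 10.5 CPM in mature libraries.

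Divided by the summed exon length of each gene, the 4 receptors can be set side by side. Notch1 made up 45.2% ± 5.72 (SD, n = 4) of the summed receptor level per length in LP and 41.0% ± 10.7 in mature libraries. Notch2 made up 41.0% ± 7.06 in LP and 37.5% ± 5.84 in mature libraries. The share of Notch3 was 12.9% ± 3.11 in LP and 20.9% ± 6.58 in mature libraries, and that of Notch4 was at most 1.76% in any library. The share of each receptor overlapped between the fractions, and Notch1 and Notch2 were the main receptors of both. The summed level per length was 12.5 to 14.1 CPM per kb in LP and 6.57 to 10.97 CPM per kb in mature libraries, and these ranges did not overlap. With the longest transcript in place of the summed exons, Notch1 took 54.6% of the receptor level in LP and 50.1% in mature libraries.

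Of the ligands, Jag1 was the only one tested, and it was higher in mature libraries. Jag1 (Entrez Gene 16449, chromosome 2 from 137081451 to 137116520), the gene of the ligand Jagged1, had 13.6, 2.01, 5.64 and 5.97 CPM in LP and 44.4, 34.4, 49.1 and 53.2 CPM in mature libraries. Every mature library lay above every LP library. The log2 fold change was -2.73 (SE 0.465, edgeR adjusted p = 0.00243), which is 6.63-fold higher in mature libraries, and the exact permutation test gave p = 0.0286, the smallest that 4 against 4 allow. LP 1, which held the most Jag1 of the LP libraries, also held the highest sum of mature markers among them (997 CPM). The other LP libraries did not follow this order. LP 2 had the next highest sum (527 CPM) and the least Jag1, whereas LP 4 had the lowest sum (307 CPM) and 5.97 CPM of Jag1. The part of mature cells in these values was not tested. Without LP 1 the log2 fold change was -3.31 (adjusted p = 0.00134 from edgeR). Basal cells are another known source of Jag1. The basal markers Krt5, Krt14, Trp63, Acta2, Myh11, Oxtr and Cnn1 summed to 4.02 to 17.3 CPM in LP and 8.58 to 48.9 CPM in mature libraries. Krt14, Acta2, Oxtr and Cnn1 were tested and not called, and Krt5, Trp63 and Myh11 failed the filter. Acta2 was higher in every mature library (0 to 2.82 CPM in LP, 2.89 to 16.6 CPM in mature, adjusted p = 0.0784 from edgeR), and Krt14 reached 18.6 CPM in mature 3. Oxtr went the other way, at 1.11 to 11.9 CPM in LP and 0 to 3.18 CPM in mature libraries (adjusted p = 0.106 from edgeR). It was 8.28, 11.9 and 8.30 CPM in LP 1, LP 2 and LP 3, and 0 in mature 1 and mature 2. The marker sums of mature 1 and mature 2, 8.58 and 8.93 CPM, lay within the range of the LP libraries. Such like sums therefore do not stand for like levels of the other basal markers. Mature 1 and mature 2 held 44.4 and 34.4 CPM of Jag1. The part of basal cells in the Jag1 difference was not tested.

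Jag2 (Entrez Gene 16450, chromosome 12 from 112907803 to 112929812) and Dll1 (Entrez Gene 13388, chromosome 17 from 15367354 to 15376932), the other Jagged ligand and a Delta-like ligand, held few counts. Jag2 had 0 counts in every LP library and 1, 1, 0 and 8 counts in mature libraries 1 to 4. Dll1 had 9 counts in LP 1 and 0 counts in each of the other 7 libraries. Neither gene passed the filter, and a single library held most of the counts of each. The antisense transcript A930024N18Rik covers 20.5% of the exon length of Dll1. Jag1 accordingly made up 97.1% ± 5.84 (SD, n = 4) of the summed level per length of the 3 ligands in LP and 99.3% ± 0.823 in mature libraries. The summed ligand level was 0.345 to 2.65 CPM per kb in LP and 5.94 to 9.30 CPM per kb in mature libraries. By the summed levels, LP libraries had the higher receptor level and the lower ligand level, but neither sum was tested. Of the genes in these sums, Notch1 and Jag1 were the ones called. The 5 other ligand genes examined, Dll3, Dll4, Dlk1, Dlk2 and Dner, all failed the filter, with at most 2.63 CPM in any library.

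Rbpj (Entrez Gene 19664, chromosome 5 from 53555779 to 53657445) encodes the DNA-binding protein through which all 4 receptors act. It had 50.1, 33.8, 49.5 and 44.1 CPM in LP and 46.3, 57.0, 78.0 and 56.5 CPM in mature libraries. The fractions overlapped in their middle, since mature 1 lay below LP 1 and LP 3. The log2 fold change was -0.42 (SE 0.210) and Rbpj was not called (adjusted p = 0.169 from edgeR), nor was it under any alternative.

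The 2 target genes were called in opposite directions. Hes1 (Entrez Gene 15205, chromosome 16 from 30065357 to 30067796), a basic helix-loop-helix repressor and a direct Notch target that other signals also induce, had 149, 96.9, 159 and 212 CPM in LP and 383, 345, 346 and 302 CPM in mature libraries. All mature libraries lay above all LP libraries. Its log2 fold change was -1.16 (SE 0.221, edgeR adjusted p = 0.00417), or 2.23-fold higher in mature libraries (exact permutation p = 0.0286). Hes1 is a rapidly induced gene, and the immediate-early genes that respond to tissue handling also differed between the fractions. Of 8 such genes, Fos, Jun, Atf3 and Dusp1 were higher in mature and Ier2 was higher in LP libraries, and their summed level was 1303 to 1516 CPM in LP and 1588 to 2983 CPM in mature libraries. Mature 4, with the lowest sum among mature libraries, also had the lowest Hes1 of them, and the part of handling in the Hes1 difference was not tested.

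Hey1 (Entrez Gene 15213, chromosome 3 from 8663359 to 8667038), a repressor of the related Hey family, had the largest fold change of the 7 genes tested, by less than its standard error over that of Jag1. Its level was 343, 424, 111 and 247 CPM in LP and 14.3, 24.2, 78.5 and 29.5 CPM in mature libraries. The fractions did not overlap, but library number 3 held both the lowest LP value and the highest mature value. The log2 fold change was 2.93 (SE 0.542, edgeR adjusted p = 0.00355), which is 7.64-fold higher in LP, with an exact permutation p = 0.0286. Within library numbers 1 to 4 the log2 difference was 4.57, 4.12, 0.50 and 3.06. Mature 3 also held the highest sum of progenitor markers among mature libraries (966 CPM, the others 244 to 715 CPM). Mature 4 had the next highest sum (715 CPM) and 29.5 CPM of Hey1, near the 24.2 CPM of mature 2 (sum 355 CPM). LP 3, with the lowest Hey1 in LP, had 400 CPM of mature markers, within the 307 to 997 CPM of the LP libraries. The part of cells of the other fraction in these values was not tested. Without mature 3 the log2 fold change of Hey1 was 3.66 (adjusted p = 0.000589 from edgeR), and without both libraries numbered 3, an alternative chosen after the values were seen, it was 3.90 (adjusted p = 0.000398 from edgeR).

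**Figure D2:**
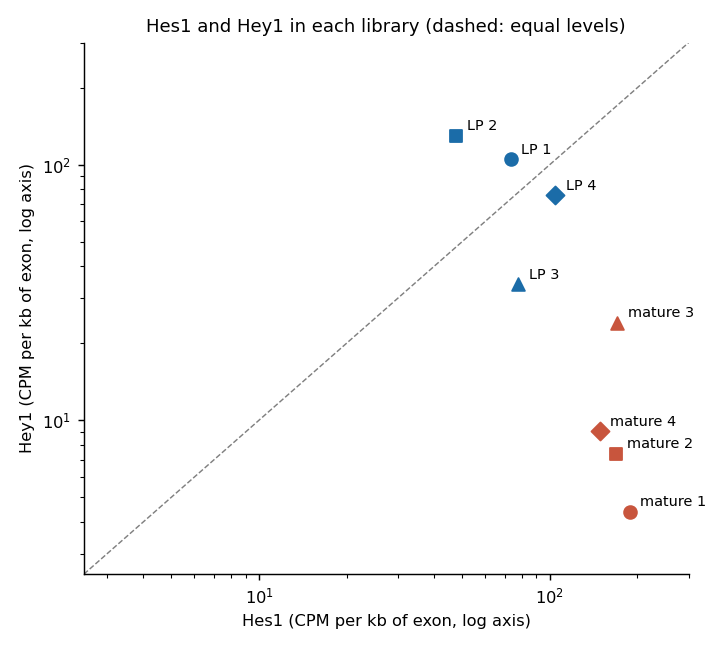
Level of Hes1 (horizontal) against Hey1 (vertical) in CPM per kb of exon on log axes, with 1 point for each library, LP in blue and mature in red, and a dashed line at equal levels. The mature libraries lie far below the line, with 7.06 to 42.8 times as much Hes1 as Hey1, and the LP libraries lie around it.

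Per length, the ratio of Hes1 to Hey1 was 0.699, 0.367, 2.28 and 1.38 in LP libraries 1 to 4 and 42.8, 22.9, 7.06 and 16.4 in mature libraries 1 to 4. Hey1 was thus ahead in LP 1 and LP 2, and Hes1 was ahead in LP 3 and LP 4 and in all 4 mature libraries. The 2 ranges did not overlap. Both Hes1 and Hey1 belong to gene sets that the study drew from these libraries, Hes1 to its mature set and Hey1 to its progenitor set, so that membership is not independent evidence of their direction.

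Ordered by level per length, LP libraries had Hey1 (86.1 CPM per kb) and Hes1 (75.7), then Notch1 (5.98), Notch2 (5.41), Rbpj (3.48), Notch3 (1.72) and Jag1 (1.17), with Notch4 (0.115), Dll1 (0.0774) and Jag2 (0) last. The order uses the summed exon length in both fractions. On it the neighbours Hey1 and Hes1, Notch1 and Notch2, and Notch3 and Jag1 overlapped between LP libraries. Hes1 and Notch1, Notch2 and Rbpj, and Rbpj and Notch3 did not. With the longest transcript instead, Notch1 (7.21 to 9.72 CPM per kb) and Notch2 (4.58 to 6.68) did not overlap in LP libraries. Rbpj, Hes1 and Hey1 were not examined on that length. In mature libraries the order was Hes1 (168.9 CPM per kb), Hey1 (11.2), Jag1 (7.77), Rbpj (4.66), Notch1 (3.77), Notch2 (3.57) and Notch3 (1.99), with Jag2 (0.0577), Notch4 (0.0572) and Dll1 (0) last. Here Hes1 stood apart and each of the next 5 genes overlapped its neighbour. Jag1 moved from below Notch1, Notch2 and Rbpj in LP to above their means in mature libraries.

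The genes whose profiles over the 8 libraries lay nearest to those of the 4 called genes were found by the root mean square distance between log2 profiles centred on each gene's mean. Nearest to Notch1 were Zfp830 (0.11) and Pls3 (0.116), neither of which was called. Slc7a2 (0.39) and Marcks (0.503) lay nearest to Jag1. For Hes1 they were Elf3 (0.14), which encodes an epithelial ETS factor, and Pbx2 (0.153), and for Hey1 they were Gm9920 (0.276) and Deptor (0.325), whose product binds mTOR. Nearness here describes these 8 libraries.

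Around the 10 genes, a list of 57 further Notch pathway genes was examined by role. Of these, 40 were tested and 10 were called, 7 higher in LP and 3 higher in mature libraries, which is 25.0% and near the 24.7% of all genes tested. The libraries did not overlap for 16 of the 40, against 29.5% of all genes tested. The median log2 fold change of the 40 was -0.12. The count of calls is therefore no result for the list as a whole, and its genes are described one role at a time.

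**Figure D3:**
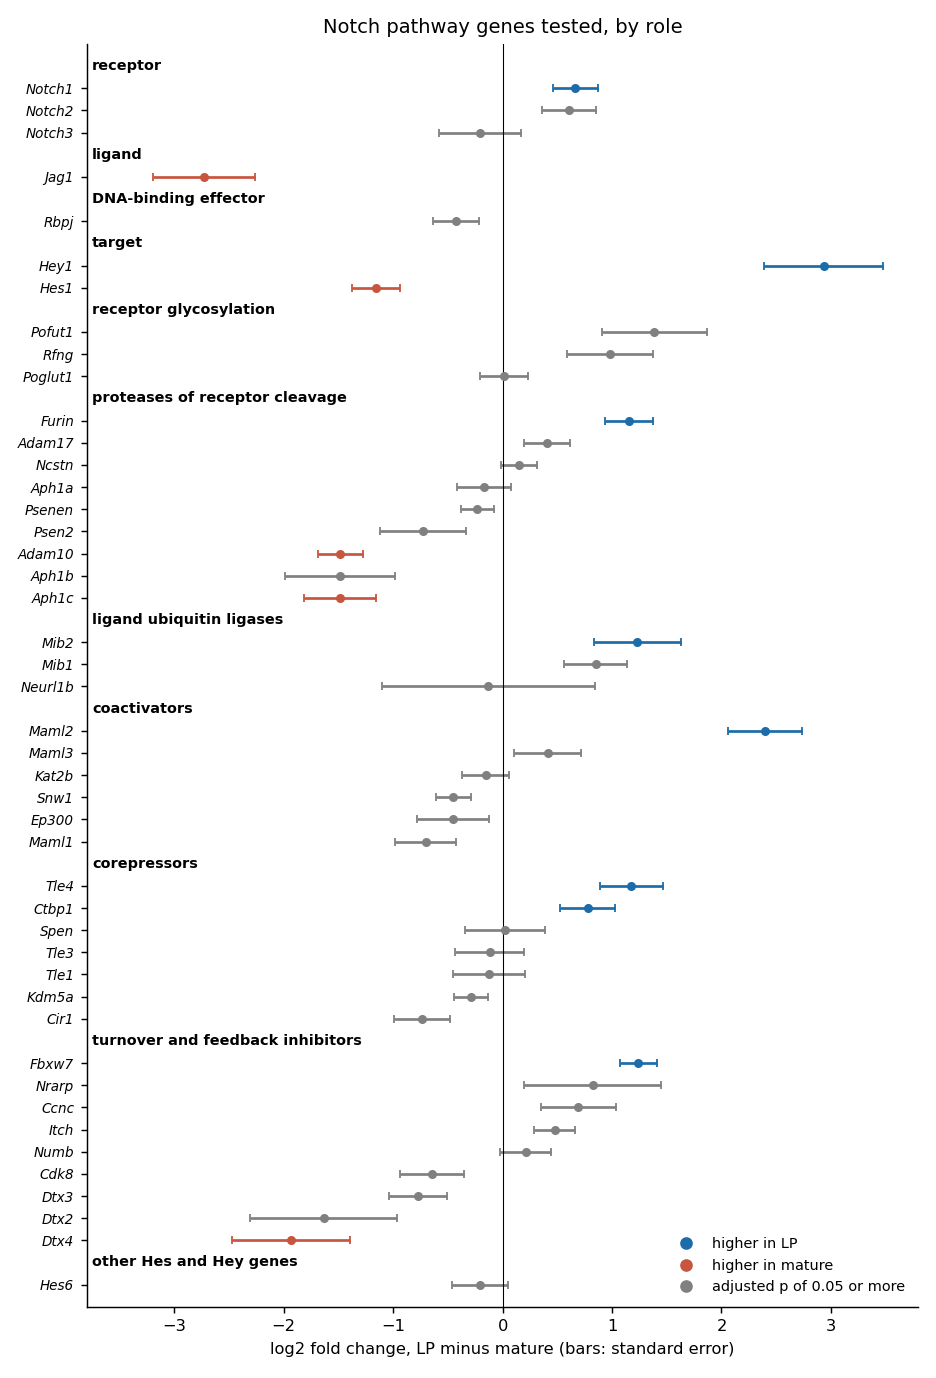
Log2 fold change of LP over mature (horizontal axis) with its standard error for the 7 Notch genes tested and 38 further pathway genes, grouped by role. Blue points were called higher in LP, red points higher in mature libraries, and grey points had an adjusted p-value of 0.05 or more. Hey1 and Maml2 lie farthest to the right and Jag1 and Dtx4 farthest to the left.

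The proteases that process the receptor differed in both directions. Adam10, the metalloprotease that makes the ligand-induced cut, had 376, 218, 255 and 222 CPM in LP and 726, 682, 741 and 844 CPM in mature libraries. No library overlapped, and the log2 fold change was -1.48 (SE 0.204, edgeR adjusted p = 0.000859). Furin, the convertase that cuts the receptor on its way to the surface, had 38.9, 41.0, 30.6 and 47.7 CPM in LP and 18.3, 15.2, 17.9 and 19.4 CPM in mature libraries. It was 2.23-fold higher in LP (log2 fold change 1.16, SE 0.215, edgeR adjusted p = 0.00368). The genes of these 2 cutting enzymes thus differed in opposite directions, each without overlap. Among γ-secretase subunits, Aph1c was 2.80-fold higher in mature libraries (6.99 ± 2.22 CPM in LP, 19.6 ± 4.34 CPM in mature, SD, n = 4, adjusted p = 0.00886 from edgeR). Aph1c and Aph1b are near-identical copies whose reads the counting could split, so the value of either is uncertain, and Aph1b was not called (log2 fold change -1.49, adjusted p = 0.0536 from edgeR). Psen2, Psenen, Aph1a, Ncstn and Adam17 had log2 fold changes from -0.73 to 0.41 and were not called.

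Of the coactivators, 1 of 6 was called. Maml2, a Mastermind coactivator that joins the receptor fragment and RBPJ, had 167, 240, 195 and 118 CPM in LP and 14.5, 43.6, 38.4 and 40.8 CPM in mature libraries. All LP libraries lay above all mature libraries, and the log2 fold change was 2.40 (SE 0.339, edgeR adjusted p = 0.000978), or 5.26-fold. Neither of its relatives was called. Maml1 had a log2 fold change of -0.70 (adjusted p = 0.0871 from edgeR) and Maml3 one of 0.41 (adjusted p = 0.360 from edgeR). Maml2 is in the progenitor set that the study drew from these libraries, and Adam10 is in its mature set, so their directions there are not independent evidence.

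Corepressors that act with RBPJ or with HES and HEY proteins were called in 2 of 8 cases, both higher in LP. Tle4, a Groucho family corepressor, had 15.8, 22.4, 25.7 and 25.5 CPM in LP and 11.1, 11.3, 9.53 and 7.68 CPM in mature libraries (log2 fold change 1.18, SE 0.286, edgeR adjusted p = 0.0131). Ctbp1, a corepressor of wide use, was 1.71-fold higher in LP (88.1 ± 16.3 against 51.5 ± 15.7 CPM, SD, n = 4, adjusted p = 0.0459 from edgeR), and 1 library, mature 3, was low at 28.0 CPM while the other mature libraries had 57.4 to 60.4 CPM. The call of Ctbp1 was lost without any 1 of the LP libraries (edgeR adjusted p = 0.0541 to 0.125), without mature 2 (0.0508) and without mature 4 (0.0524). That of Tle4 was lost only without both libraries numbered 3 (edgeR adjusted p = 0.0546). Tle1, Tle3 and Spen had log2 fold changes between -0.12 and 0.02, and Cir1 had -0.74, with an adjusted p-value of 0.0577 from edgeR.

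Turnover and feedback genes were called in 2 of 9 cases, 1 in each direction. Fbxw7, the ubiquitin ligase subunit that marks the active receptor fragment for breakdown and also acts on other proteins, had 91.5, 101, 114 and 118 CPM in LP and 38.4, 40.5, 54.7 and 46.0 CPM in mature libraries. It was higher in every LP library, with a log2 fold change of 1.24 (SE 0.171, edgeR adjusted p = 0.000859). Dtx4, a Deltex family ubiquitin ligase, had 8.13, 6.90, 18.8 and 2.22 CPM in LP and 51.9, 34.2, 30.3 and 20.3 CPM in mature libraries, with a log2 fold change of -1.93 (SE 0.539, edgeR adjusted p = 0.0242). Both fractions varied widely for Dtx4. The call was lost without LP 1, LP 2, mature 1 or mature 2 (edgeR adjusted p = 0.0641, 0.0703, 0.0718 and 0.0502), and without LP 3 the log2 fold change was -2.56. Nrarp, a feedback inhibitor that is itself a Notch target, had 4.94 to 13.3 CPM in LP and 1.59 to 9.04 CPM in mature libraries and was not called (log2 fold change 0.82, adjusted p = 0.371 from edgeR), and an antisense transcript, Gm38287, covers 79.4% of its exon length. Numb, an inhibitor of Notch, was not called either (log2 fold change 0.21, adjusted p = 0.554 from edgeR).

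Mib2, a ubiquitin ligase that helps ligands enter the cell that carries them, was called in 1 of 3 tests of its role, with 12.3 ± 4.39 CPM in LP and 5.24 ± 1.06 CPM in mature libraries (SD, n = 4, log2 fold change 1.23, adjusted p = 0.0439 from edgeR), and the call was kept without LP 2 (edgeR adjusted p = 0.0403) and lost without any other single library (0.0509 to 0.119). Mib1, the related ligase, had 43.2 to 54.9 CPM in LP and 12.6 to 35.0 CPM in mature libraries without overlap, but was not called (log2 fold change 0.85, adjusted p = 0.0522 from edgeR). Of the enzymes that add sugars to the receptor, 0 of 3 tested were called, and Pofut1 and Rfng had the largest values (log2 fold changes 1.39 and 0.98, adjusted p = 0.0583 and 0.0952 from edgeR). Lfng, the Fringe enzyme that shifts receptors towards Delta ligands, failed the filter and is named after its values were seen. It had 0.290, 1.01, 0.166 and 0 CPM in LP and 5.91, 6.04, 1.44 and 5.88 CPM in mature libraries, all mature libraries above all LP libraries, and with no filter its adjusted p-value was 0.0298 in edgeR.

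The other Hes and Hey genes gave little signal. Hes2, Hes3, Hes5 and Heyl had 0 counts in all 8 libraries, Hes7 and Hey2 failed the filter with at most 5.49 CPM in any library, and Hes6, the only one tested, was not called (log2 fold change -0.20, adjusted p = 0.602 from edgeR). Of the 9 family members in the 2 lists, Hes1, Hey1 and Hes6 were the ones that passed the filter.

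**Figure D4:**
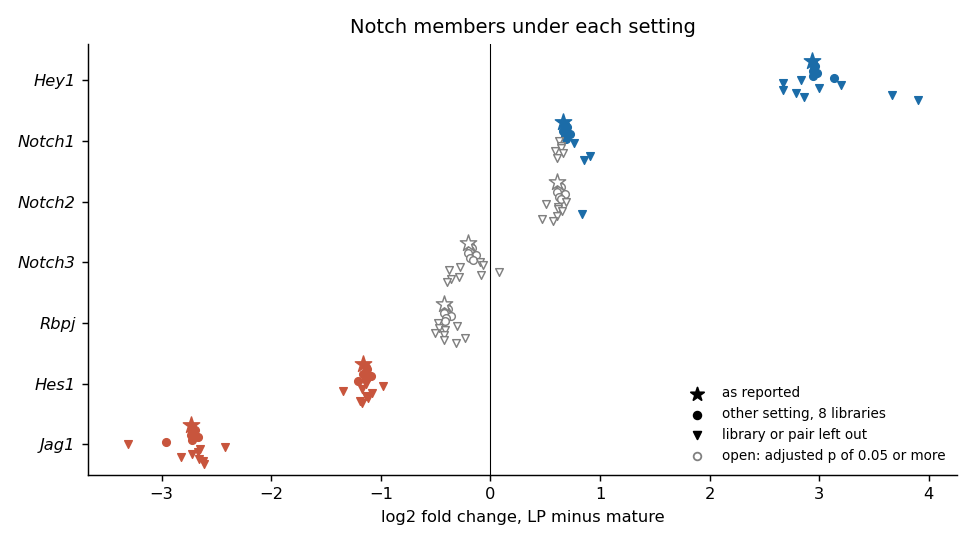
Log2 fold change of LP over mature (horizontal axis) for the 7 Notch genes tested, with 1 symbol for each of 17 fits. Stars are the reported values, circles the other settings with all libraries, triangles the fits with a library or library pair left out, and open symbols had an adjusted p-value of 0.05 or more. Hey1, Hes1 and Jag1 are filled throughout, whereas Notch1 is open in 6 fits.

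Under the 16 alternatives, Jag1, Hes1 and Hey1 were called in all and in the same direction. Their log2 fold changes ranged from -3.31 to -2.42 for Jag1, from -1.35 to -0.98 for Hes1 and from 2.67 to 3.90 for Hey1. Notch1 stayed above 0 throughout, from 0.59 to 0.91, and was called in 10 of the 16.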

How the data were processed

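RNA sequencing of 4 LP and 4 mature libraries was analysed, grouped by their titles. Reads were 51 bp, single-end. After trimming (cutadapt) and alignment to mm10 (bowtie2), the authors deposited the raw count of each gene, not normalized, and the submitters' processing notes name cutadapt 4.2 and Bowtie2 2.3.5.1. Bowtie2 does not split reads over introns. The counting program, its annotation and its use of strand are not given in the sources used here. cDNA was amplified from 500 pg of RNA and libraries by 8 PCR cycles, without molecular identifiers.

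Symbols and positions came from RefSeq on GRCm38.p6, which matched 24570 of 24594 IDs. Exon lengths came from GENCODE M21 on the same genome, in place of the RefSeq exons that had been planned. Counts were normalized by TMM, filtered with filterByExpr by fraction and compared in edgeR 4.0.16 (R 4.3.3) with the quasi-likelihood F-test and no replicate block. Benjamini-Hochberg adjustment ran over 12816 genes and calls were made at an adjusted p under 0.05. The standard error is the absolute log2 fold change divided by the square root of F. The biological coefficient of variation was 0.393. Exact permutation tests on log2 CPM were two-sided (Python 3.11.15, scipy 1.17.1, pandas 2.3.3). Alternatives were RLE and upper-quartile factors, DESeq2 1.42.0, the likelihood ratio test, a minimum of 10 counts in every library, no filter, library number as a replicate block, each library left out, and library pair 3 left out, the last chosen after the values were seen. The genes and lists were chosen with earlier results of these data known. All 10 Notch genes and the wider pathway genes called were named, except that some pathway genes are not reported here, with the 2 genes nearest in profile to each called Notch gene and others given as ranges. The fit was tested on simulated counts. Replicate libraries differed by more than sampling noise (chi-square per degree of freedom 11.9 to 89). Of the other marker lists, fibroblast markers summed to 7.35 to 39.1 CPM in LP and 21.7 to 174 CPM in mature libraries (0 called of 3 tested among 5). Dcn alone made up 132 CPM in mature 1 and 154 CPM in mature 2. Pdgfra reached 16.3 CPM in mature 2, and Col1a1 was 0 in both. Immune markers summed to 10.5 to 13.9 CPM in LP and 6.75 to 9.67 CPM in mature libraries (0 called of 2 tested among 6). Epcam, Krt8 and Krt18 together summed to 9943 to 10980 CPM in LP and 19960 to 35190 CPM in mature libraries (2 of 3 called higher in mature libraries).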

Additional observations from a re-analysis of the deposited data

Results flagged for a closer look

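In 38 groups of 4 libraries, for the 10 Notch genes and the 10 called pathway genes, the gap of the highest or lowest library to its nearest neighbour was set against the whole range. It passed the 95% limit of Dixon's test in 4 of them, where chance alone gives about 1.9. Notch1 in LP libraries had a ratio of 0.892, set by LP 2 at 68.4 CPM below the other 3 at 89.6 to 92.2 CPM. Dll1 in LP libraries had a ratio of 1.0, since LP 1 held 9 counts and the others 0. For Aph1c in LP libraries the ratio was 0.922, with LP 1 at 10.3 CPM above 5.75 to 6.10 CPM in the others. Ctbp1 in mature libraries had a ratio of 0.907, with mature 3 at 28.0 CPM below 57.4 to 60.4 CPM in the others.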

How the results depend on the processing

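With all 8 libraries, the same 4 Notch genes were called under the 7 alternatives. With 1 library left out, 3 or 4 were called and all genes called numbered 2338 to 3414. Notch1 lay between 0.593 and 0.906 on the log2 scale in those fits, Notch2 between 0.471 and 0.833, and Notch3 between -0.379 and 0.0776. The number of wider pathway genes called moved from 10 to 17 with the DESeq2 Wald test and to 16 with the likelihood ratio test, and all 10 were kept in both. The cause was not tested. With 1 library left out it was 7 to 12. With library number as a replicate block, 4 Notch genes and 9 wider pathway genes were called, 8 of the latter shared with the fit without it, and Mib2 was among those lost (adjusted p = 0.0957 from edgeR). The labels share only numbers, which were not taken as a pairing. After subtraction of fraction means, same-numbered libraries correlated across genes at 0.103, 0.061, 0.136 and 0.0825. Libraries of different numbers correlated at -0.144 to 0.0744, most of them below 0. Each LP library correlated best with the mature library of its own number. Mature 1, mature 3 and mature 4 correlated best with their own numbers, and mature 2 better with LP 1 (0.0744) than with its own. Among the other values, for single pathway genes and shares, 147 kept their call or moved by less than 1 SD, 26 lost their call and 1 moved by more, the share of Notch1 in LP. Depth limits Notch4, Jag2 and Dll1, which hold 39, 10 and 9 counts in all.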
